A study of Mus musculus with 4 samples.

Results

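The vascular endothelial growth factors (VEGFs), the angiopoietins and their receptors were followed in heart valve leaflets of newborn mice that lack Cxcr7 and of wildtype littermates. The set holds 10 genes: the ligands Vegfa, Vegfb and Vegfc with the receptors Kdr, Flt1 and Flt4, and the ligands Angpt1 and Angpt2 with the receptors Tek and Tie1. The genes were chosen by family membership, and every probe set annotated to 1 of these symbols alone was taken. This gave 19 probe sets of 45037 on the array, and 10 genes of the 18193 that had a probe set of their own. Of the 19 probe sets, 15 passed the filter on dim signal, and each of the 10 genes kept at least 1.

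The groups were 2 pools of Cxcr7-/- neonates and 2 pools of control neonates, described as wildtype littermates, with 3 animals to a pool and 1 array to each pool. Aortic and pulmonary leaflets were combined, and a mutant gave 4 to 6 of them where a wildtype gave 6. No strain, sex or exact age is stated in the labels. The deletion is labelled by genotype with no Cre line, the design text calls the pools biological replicates, and pooling hides the spread between animals. The series is titled for the semilunar valve phenotype of these neonates, so the comparison asks how the leaflet transcriptome differs without Cxcr7, which encodes a receptor that binds and removes the chemokine CXCL12.

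VEGF-A binds the receptor tyrosine kinases FLT1 and KDR. KDR carries most of the growth, survival and permeability signal in endothelial cells, while FLT1 binds VEGF-A tightly, signals weakly and has a secreted form that traps the ligand. VEGF-B is a ligand of FLT1, and VEGF-C acts mainly on FLT4, the receptor of lymphatic endothelium. Angiopoietin 1 activates TEK (TIE2) and stabilises vessels, angiopoietin 2 is a partial agonist or antagonist made mostly by endothelial cells, and TIE1 is a related receptor that modulates TEK. In the heart, endothelial cells cover the leaflets, and VEGF signalling from the outflow tissue takes part in the forming of the valve cushions.

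Array checks differed between the pools. The deleted gene, listed as Ackr3, read 28.3 and 328 on the mutant arrays and 4936 and 5698 on the control arrays. For the Actb control probe sets, signal at the 3' end exceeded that at the 5' end by a factor of 11.7 to 15.5 on the mutant arrays and 19.1 to 20.2 on the control arrays. For Gapdh the factor was 24.2 in control pool 2, against 8.20 to 12.7 elsewhere. Control pool 2 correlated with the other arrays at 0.922 to 0.931 over the probe sets kept, and the other 3 arrays with each other at 0.928 to 0.956. Control pool 1 was nearer to mutant pool 2 (0.953) than to control pool 2 (0.931), so the arrays did not group by genotype. Such correlations run over probe sets and carry no replicate error. Where leaving out a pool turned the sign of a member or list or moved it by over 1.5 times, the values that moved most are given beside it, and the part of RNA quality in the members' values was not tested. All 10 valve interstitial and all 22 endothelial markers passed the filter, as did all 14 cardiomyocyte and 4 of 5 lung epithelial markers.

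Values are MAS5 signals, a linear brightness per probe set that is comparable between arrays and not between probe sets. Differences were taken on log2(signal + 22), Cxcr7-/- minus control, over the brighter part of the probe sets (mean above the median), and tested with limma, a linear model that shares the estimate of error across probe sets. No member passed the threshold. In limma, 0 of 15 member probe sets had an adjusted p under 0.05, against 0 of 22518 (0%) over the whole table, where 2279 had an unadjusted p under 0.05. The deleted gene Ackr3 did not pass either, at a log2 difference of -5.33 (limma's adjusted p = 0.400). A lack of calls in this fit therefore does not show a lack of change. At an unadjusted p under 0.05 there were 2 member probe sets, those of Angpt1 (higher in Cxcr7-/-) and Kdr (lower). By gene this is 1 of 10 in each direction, where the share over 11260 genes was 3.93% higher and 4.03% lower. The differences below are therefore values, each with its error. Both mutant pools lay below both control pools for 5 members, Vegfb, Kdr, Flt1, Flt4 and Tie1, where 19.1% of genes did, and above both for 2 members, Vegfa and Angpt1, where 21.1% of genes did. The median log2 fold change (Cxcr7-/- minus control) was -0.25 over the 10 members and 0.0048 over all genes kept. After median centring of the arrays, which moved the median of all genes to 0.14 and the genes with a positive value from 5669 to 7193 of 11260, and likewise with all probe sets of a gene averaged, 4 of 10 members in place of 7 had pools that lay apart. Over all genes the share with pools apart was 40.2%, and 39.9% and 39.3% in those 2 settings, so the members' count was then near that of all genes. The members' median was -0.11 after median centring and -0.13 without Cxcr7-/- replicate 2.

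**Figure D1:**
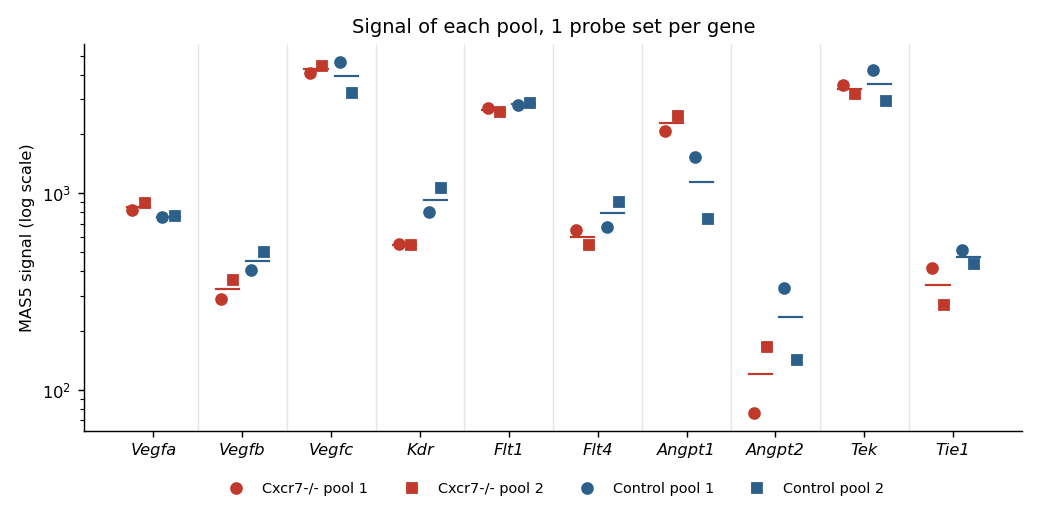
MAS5 signal on a log axis for the probe set that stands for each of the 10 genes, with red points for the 2 Cxcr7-/- pools, blue points for the 2 control pools (circle, replicate 1; square, replicate 2) and bars at the group means. Kdr lies at 552 and 543 on the mutant arrays against 799.6 and 1056, Angpt1 lies above both control pools in both mutant pools, and the Angpt2, Tek and Vegfc pools overlap; signals of different genes are not on a common scale.

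Among the VEGF ligands, Vegfa was nearly the same in all pools, Vegfb was somewhat lower in Cxcr7-/- leaflets and Vegfc overlapped. Vegfa (1420909_at), the main ligand of KDR, read 821 and 886 on the mutant arrays and 752 and 769 on the control arrays. The mutant signals lay just above the control signals, by a factor of 1.12 between the means. On the log2 scale the difference was 0.16 ± 0.27 (± is the standard error throughout, with n = 2 pools of each genotype), and its 95% interval ran from -0.46 to 0.78. A dim second probe set of Vegfa (1451959_a_at), under the filter and not tested, read 101 and 62.6 against 13.7 and 16.5. It pointed the same way by a larger factor, at control signals below the pseudocount of 22, and averaging both probe sets gave a log2 fold change of 0.81. Median centring gave 0.30 for the brighter one, and leaving out Cxcr7-/- replicate 2 gave 0.11.

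Vegfb (1451803_a_at), a ligand of FLT1 abundant in heart muscle, read 290.4 and 361 on the mutant arrays against 407 and 501 on the control arrays. The groups did not overlap, and the gap between 361 and 407 was smaller than the distance between the pools of either genotype. Its log2 fold change was -0.45 ± 0.32 (95% interval -1.18 to 0.28; limma's adjusted p = 0.662). Markers of heart muscle cells moved with it: all 14 listed genes had negative log2 fold changes, with a summed signal of 93117 and 137105 on the mutant arrays against 172453 and 241869. In bulk leaflets, fewer cells of a type and less RNA per cell cannot be told apart, and the part of carried heart muscle in the Vegfb values was not tested.

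Vegfc encodes the ligand of FLT4 and had 3 probe sets above the filter. The brightest (1439766_x_at), whose probes may also bind related transcripts, read 4098 and 4412 on the mutant arrays and 4667 and 3228 on the control arrays. The control pools lay on either side of the mutant pools, and the log2 fold change was 0.13 ± 0.26, or -0.13 without control replicate 2 and 0.40 without control replicate 1. A second probe set (1440739_at) overlapped in the same way, with 1821 and 1886 against 2164 and 1593. The third (1419417_at) had both mutant pools on top, at 2082 and 1992 against 1703 and 1295, which is 0.45 ± 0.26 on the log2 scale (limma's adjusted p = 0.606). The 3 probe sets shared the order of the control pools, with replicate 1 above replicate 2.

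The VEGF receptors pointed lower in Cxcr7-/- leaflets on their brightest probe sets, Kdr most and Flt1 least. Kdr (1449379_at), the principal VEGF-A receptor, read 552 and 543 on the mutant arrays and 799.6 and 1056 on the control arrays. The mutant pools were nearly equal, both lay below both control pools, and their mean was 59.0% of that of the controls. On the log2 scale Kdr differed by -0.72 ± 0.29 (95% interval -1.39 to -0.055), with an adjusted p of 0.471 in limma (unadjusted p = 0.0373). It was -0.53 without control replicate 2 and -0.92 without control replicate 1. Median centring gave -0.59 ± 0.35 (limma's unadjusted p = 0.124). With the replicate number as a block, limma's unadjusted p was 0.072, so the 95% interval held 0 in both settings.

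Flt1, the tight-binding receptor for VEGF-A and VEGF-B, had 4 probe sets above the filter, and they disagreed in sign. The brightest (1451756_at) read 2705 and 2586 on the mutant arrays and 2807 and 2890 on the control arrays, a log2 fold change of -0.11 ± 0.23. The mutant pools lay below the control pools there by a small margin, and after median centring the sign turned (0.032). A second (1419300_at), with 2022 and 1465 against 2343 and 2559, differed by -0.50 ± 0.27 on the log2 scale (limma's adjusted p = 0.566). The other two (1440926_at and 1454037_a_at) overlapped, at log2 fold changes of 0.31 ± 0.31 and 0.41 ± 0.40. Which transcript forms the 4 probe sets detect, including the secreted form, is not given by the annotation table used here.

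Flt4, which encodes the receptor of VEGF-C, read 648 and 542 on the mutant arrays and 676 and 904 on the control arrays (1444052_at). The highest mutant pool and the lowest control pool were close, at 648 and 676, so the groups were apart by less than the distance within either. Its log2 fold change was -0.39 ± 0.30 (95% interval -1.08 to 0.31). It was -0.18 without control replicate 2 and -0.59 without control replicate 1, and 0.031 with both probe sets averaged. The other probe set (1421442_at) was under the filter and overlapped, at 96.2 and 96.1 against 23.4 and 143. Genes used to mark lymphatic endothelium were mixed, with 2 of 6 log2 fold changes above 0 and a summed signal of 2962 and 3381 against 4105 and 4425. Their median was -0.43, and -0.21 without control replicate 1. The brightest of them were Pdpn, at 1760 and 1398 against 1357 and 2244, and the valve and lymphatic transcription factor gene Foxc2, at 464 and 629 against 1178 and 1363.

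The stretches before the start sites of Kdr, Flt1 and Tie1 are shown because Kdr had the smallest unadjusted p among the receptors, and Flt1 and Tie1 were the members whose windows held a match to ETS words, the motif of a factor family active in endothelial genes. Each is 250 bases 5' to 3' on the strand of the gene, from RefSeq windows of GRCm38.p6, in lower case with the ETS words AGGAAG and CGGAAG (either strand) in capitals.

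Kdr, chr5:75978456-75978705, minus strand: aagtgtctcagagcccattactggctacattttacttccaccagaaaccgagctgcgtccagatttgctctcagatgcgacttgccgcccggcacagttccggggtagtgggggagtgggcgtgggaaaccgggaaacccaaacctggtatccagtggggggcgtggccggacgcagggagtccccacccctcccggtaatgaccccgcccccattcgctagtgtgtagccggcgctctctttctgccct

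Flt1, chr5:147726012-147726261, minus strand: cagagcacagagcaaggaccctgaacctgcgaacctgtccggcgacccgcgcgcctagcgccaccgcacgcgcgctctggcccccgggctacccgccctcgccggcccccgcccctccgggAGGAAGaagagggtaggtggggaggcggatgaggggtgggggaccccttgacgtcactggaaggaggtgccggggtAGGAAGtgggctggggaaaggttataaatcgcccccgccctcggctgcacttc

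Tie1, chr4:118489850-118490099, minus strand: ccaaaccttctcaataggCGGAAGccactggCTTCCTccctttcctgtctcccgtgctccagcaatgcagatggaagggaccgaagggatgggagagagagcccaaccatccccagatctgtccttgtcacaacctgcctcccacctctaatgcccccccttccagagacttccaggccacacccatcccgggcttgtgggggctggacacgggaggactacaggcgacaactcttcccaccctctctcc

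RefSeq windows, from 250 bases before to 50 after a start site, were matched for 8 of the 10 members (9 windows, 2 of them for Vegfa), and Angpt1 and Angpt2 had no entry. An ETS word was found in 2 of the 9 windows and in 46.5% of all 32851 windows. In Flt1 the words began 129 and 53 bases before the start, and in Tie1 232 and 219 bases before it, with 1 more after it. The hypoxia response cores ACGTG and GCGTG, letters at the heart of the sites of hypoxia-inducible factors, were in 4 of 9 windows (Vegfa, Vegfb, Kdr and Flt1) against 43.8% of all. For Vegfa only 1 of its 2 windows held them, the one further downstream on the minus strand (chr17:46025114-46025413). The upstream Vegfa window (chr17:46032328-46032627) held 0. In Kdr the cores began 131 and 89 bases before the start. The KLF word CCACCC was in 7 of 9 windows (31.5% of all), the GATA word AGATAA in 2 of 9 (11.2%) and the forkhead word GTAAACA in 0 of 9 (3.65%). All were searched on both strands, and the 2 KLF matches in Vegfc overlapped each other. A match describes letters in these windows and shows no binding.

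On the probe sets that stand for the genes, the angiopoietins had the largest log2 fold changes of the set, with opposite signs. Angpt1 (1439066_at), the TEK agonist made by cells that surround the endothelium, read 2068 and 2477 on the mutant arrays and 1528 and 740.1 on the control arrays. Both mutant pools lay above both control pools, and the mean was 2.00 times that of the controls. The control pools were themselves far apart, by 1.02 on the log2 scale, about as far as the genotypes. The log2 fold change was 1.07 ± 0.36 (95% interval 0.23 to 1.91), with an adjusted p of 0.444 in limma (unadjusted p = 0.0186).

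The size of the Angpt1 difference changed with the control array that was kept. Without control replicate 1 the log2 fold change was 1.58, at an adjusted p of 0.0232 in limma, in a fit that called 673 probe sets. In that fit the control group is 1 array, which is assumed to vary like the mutant pair, so the spread comes from the 2 mutant pools and the shared estimate across probe sets, and the p says nothing of the spread between controls. Without control replicate 2 it was 0.56, with an adjusted p of 0.476, and over all settings run the adjusted p ranged from 0.0232 to 1.00. A second probe set of Angpt1 (1421441_at) was dim and under the filter, at 4.42 and 13.8 on the mutant arrays and 80.6 and 11.3 on the control arrays. It pointed the other way, and averaging both probe sets gave a log2 fold change of 0.073. Among smooth muscle and pericyte markers, cells that make Angpt1, 3 of 10 had positive and 7 negative log2 fold changes. The 3 positive genes were Kcnj8 (1.02 ± 0.30), Abcc9 (0.72 ± 0.23) and Rgs5 (0.38 ± 0.27), each with both mutant pools above both control pools. The largest negative values were those of Des (-1.32 ± 0.47), Cnn1 (-0.92 ± 0.53) and Tagln (-0.71 ± 0.24). The summed signal of the whole list was 26939 and 30340 on the mutant arrays and 31765 and 40174 on the control arrays. Among valve interstitial markers 5 of 10 were positive (9 of 10 without control replicate 1, and 1 of 10 without control replicate 2), and their summed signal of 246760 and 261099 on the mutant arrays lay between the control values of 188644 and 273233. In control replicate 2 both that sum and Angpt1 were lowest, and the part of cell makeup in the Angpt1 values was not tested.

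Angpt2 (1448831_at), the context-dependent TEK ligand, read 76.2 and 165 on the mutant arrays and 329 and 141 on the control arrays. The groups overlapped, with 1 low mutant pool and 1 high control pool. Its log2 fold change was -0.82 ± 0.51 (95% interval -2.00 to 0.35; limma's adjusted p = 0.625). It was -1.37 without control replicate 2 and -0.27 without control replicate 1, and -0.36 without Cxcr7-/- replicate 1 and -1.28 without Cxcr7-/- replicate 2. The other Angpt2 probe set (1459636_at), under the filter, had both mutant pools on top, at 46.2 and 28.1 against 17.9 and 3.39. With both averaged the log2 fold change was 0.029, so the data give no settled direction for Angpt2.

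Within each array, the log2 difference between the Angpt1 and Angpt2 probe sets was nearly equal on the control arrays. Relative to control replicate 1 it was 0.079 in control replicate 2, 2.27 in Cxcr7-/- replicate 1 and 1.60 in Cxcr7-/- replicate 2. Both genes read lower in control replicate 2 than in control replicate 1, at log2 differences of -1.02 for Angpt1 and -1.10 for Angpt2. The mean shift was 1.89 in favour of Angpt1. This difference was formed after the values were seen, rests on the brighter probe set of each gene, and was not tested.

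The angiopoietin receptors pointed lower or overlapped. Tek, which encodes the TIE2 receptor, read 3564 and 3181 on the mutant arrays and 4234 and 2936 on the control arrays (1418788_at). The mutant pools lay between the control pools, and the log2 fold change was -0.066 ± 0.26 (95% interval -0.68 to 0.55). Its sign turned after median centring (0.072), without Cxcr7-/- replicate 2 (0.015) and without control replicate 1 (0.20), and it was -0.33 without control replicate 2 and -0.15 without Cxcr7-/- replicate 1.

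Tie1, which encodes the partner receptor of TIE2, read 417 and 269 on the mutant arrays and 517 and 435 on the control arrays (1416238_at). The upper mutant pool was just under the lower control pool, at 417 and 435, and the mutant mean was 72.1% of that of the controls. Its log2 fold change was -0.47 ± 0.34 (95% interval -1.25 to 0.31; limma's adjusted p = 0.668), and with 1 pool left out it ran from -0.77 without Cxcr7-/- replicate 1 to -0.18 without Cxcr7-/- replicate 2.

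**Figure D2:**
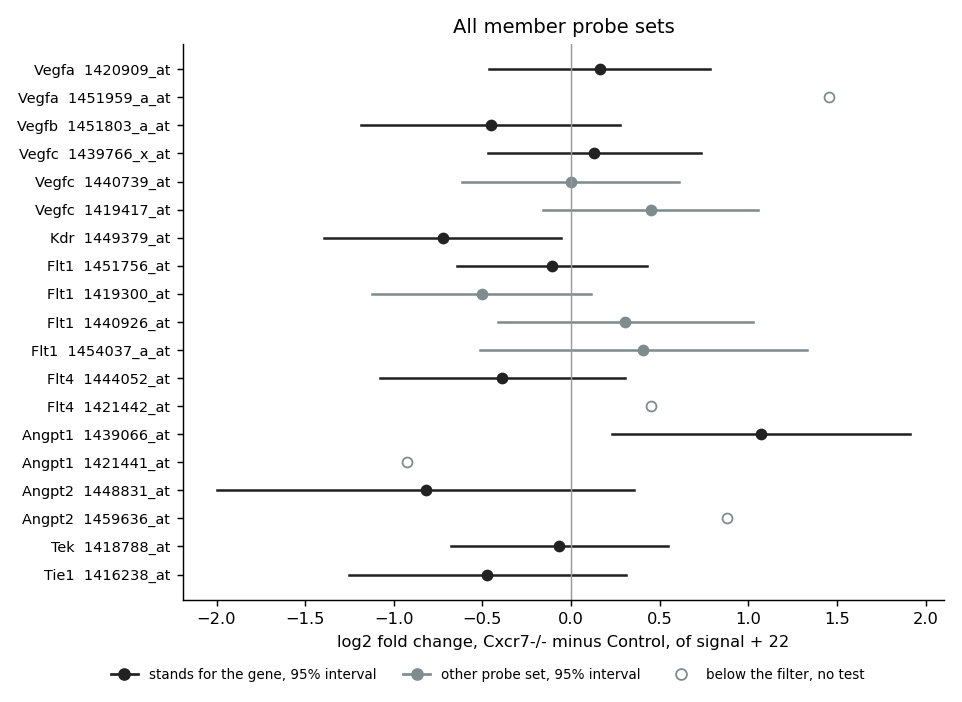
Log2 fold change (Cxcr7-/- minus control, of signal + 22) of all 19 member probe sets, with 95% intervals of the limma fit for the 15 above the filter; black, the probe set that stands for the gene; grey, other probe sets; open, under the filter and not tested. Of the 15 intervals, those of Kdr (-1.39 to -0.055) and Angpt1 (0.23 to 1.91) leave out 0, and the probe sets of Vegfc, Flt1, Flt4, Angpt1 and Angpt2 differ in sign within a gene.

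The receptors are expressed mainly by endothelium, so they were set beside 22 endothelial markers, all of which passed the filter. The markers split: 10 had positive and 12 negative log2 fold changes, with a median of -0.049 and a mean of -0.24, and 4 had an unadjusted p under 0.05, all lower. These were the tight junction gene Cldn5 (1131 and 1029 against 3172 and 4126), the von Willebrand factor gene Vwf (1635 and 1434 against 2727 and 2733), the guidance receptor gene Robo4 (59.3 and 57.6 against 136 and 205) and the secreted regulator Egfl7 (1502 and 1305 against 1995 and 4819). The mean log2 signal of the 22 markers was 10.34 and 10.32 on the mutant arrays and 10.49 and 10.65 on the control arrays. After median centring the marker median was 0.089, with 13 of 22 positive, and it ran from -0.16 without control replicate 2 to -0.00090 without control replicate 1. Egfl7 was at -0.50 without control replicate 2.

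Relative to that marker mean, taken within each array, Kdr was still lower in both mutant pools, by a log2 difference of -0.48. Tie1 differed by -0.23 and Flt4 by -0.14, and their pools then overlapped. Tek differed by 0.18 with overlapping pools, and Flt1 by 0.14 with both mutant pools on top. The mean log2 fold change of the markers (-0.24) lay below their median (-0.049), and those of Flt1 (-0.11) and Tek (-0.066) lay between. The relative signs of Flt1 and Tek therefore depend on the use of the mean. Of the ligands, Angpt1 stood 1.32 higher and Vegfa 0.40 higher relative to the same mean, each above both control pools. Before the marker mean was taken off, Angpt1 was at 1.07 and Vegfa at 0.16. That step shifts every gene by the same amount. These are descriptions with no test, and how far the number of endothelial cells differed between the pools was not measured.

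The receptors followed different endothelial markers over the 4 pools. The root mean square distance of centred log2 values was smallest between Kdr and Mmrn2 (0.16) and Vwf (0.16), where the median over the 22 markers was 0.44. Tek lay nearest to Ptprb (0.064), which encodes the phosphatase VE-PTP that acts on TIE2, and to Emcn (0.10). Tie1 lay nearest to the cadherin gene Cdh5 (0.098) and the transcription factor gene Sox18 (0.20), and Flt4 to Sox18 (0.076) and Ecscr (0.17). Flt1, flat over the pools, lay nearest to Sox7 (0.065) and Cd34 (0.11). With 4 pools such distances describe these arrays only, and only endothelial markers were compared. Tek was highest in control pool 1 and lowest in control pool 2, and so were the valve interstitial genes Col3a1 and Vcan.

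**Figure D3:**
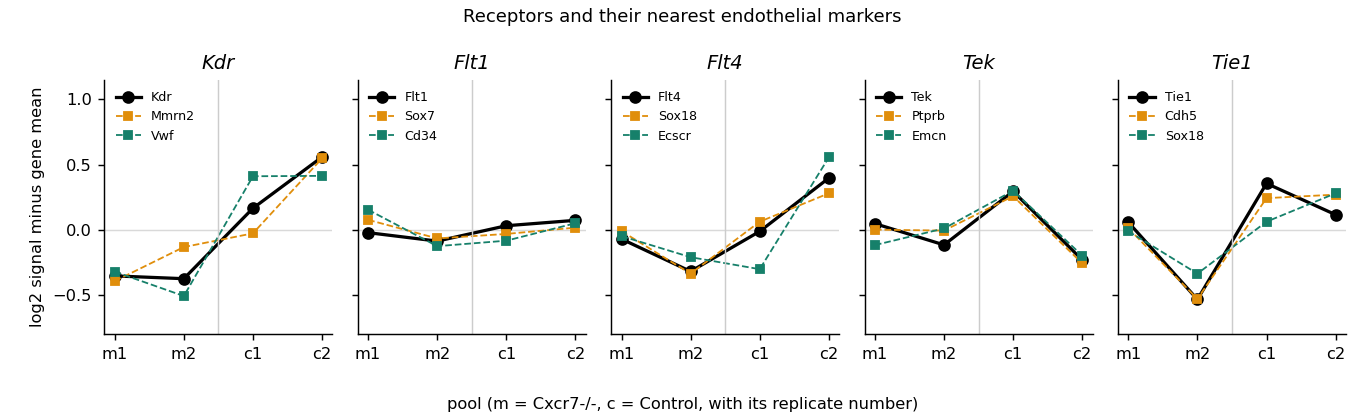
Log2 signal of each receptor (black) and its 2 nearest endothelial markers (orange and green), centred on the gene's mean, in Cxcr7-/- pools m1 and m2 and control pools c1 and c2; lines only join the points of a gene. Kdr, with Mmrn2 and Vwf, is low in both mutant pools, Flt1 is flat, Tek peaks in control pool 1 with Ptprb and Emcn, and Tie1 is lowest in mutant pool 2 with Cdh5.

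Of the other ligands and co-receptors of the VEGF family, all 4 had positive log2 fold changes with all pools kept, with a median of 0.51, and none passed. Without control replicate 1 or without control replicate 2, 3 of 4 were positive. Pgf, which encodes the FLT1 ligand placental growth factor, read 404 and 265 on the mutant arrays and 193 and 164 on the control arrays (0.81 ± 0.36; limma's adjusted p = 0.501). Vegfd, a second FLT4 ligand, read 687 and 603 against 295 and 557 (0.64 ± 0.36). The mutant pools lay above the control pools for both genes, narrowly for Vegfd. The co-receptor genes Nrp1 (0.34 ± 0.31) and Nrp2 (0.37 ± 0.41) overlapped. Nrp1 turned to -0.13 without control replicate 2 and Nrp2 to -0.0068 without control replicate 1, and Vegfd was at 0.20 without control replicate 1.

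Genes that carry the signal from the VEGF receptors had a median log2 fold change of 0.077 over 15 genes above the filter, 8 positive and 7 negative, and 1 had an unadjusted p under 0.05. The list had no settled direction: its median was 0.24 without Cxcr7-/- replicate 1, -0.17 without Cxcr7-/- replicate 2, -0.13 without control replicate 1 and 0.15 without control replicate 2. The gene with the smallest p was Prkcb, a protein kinase C gene, at 473 and 628 against 322 and 249 (0.89 ± 0.33; limma's adjusted p = 0.454). The GTPase gene Rac1 followed (0.45 ± 0.21), and the adaptor gene Nck1 (1.34 ± 0.66) was far lower in control replicate 2 than elsewhere, with 1188 and 1259 against 1096 and 193, and was at 0.15 without that array. Partners and effectors of the TIE receptors had a median of -0.026 over 10 genes, 4 positive and 6 negative (7 of 10 positive and a median of 0.11 after median centring, and medians of -0.035 to -0.011 with 1 pool left out), and none with an unadjusted p under 0.05. The smallest p-values were those of the lipid kinase gene Pik3ca (-0.44 ± 0.28), the TIE2-binding protein gene Tnip2 (-0.53 ± 0.35) and Foxo1 (-0.49 ± 0.39), the transcription factor gene that TIE2 signalling restrains. Foxo1 read 6717 in control replicate 2 and 2849 to 3366 elsewhere, and turned to 0.12 without that array.

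Genes known to respond to VEGF or to mark sprouting endothelial tips had a median of 0.13 over 11 genes, 8 positive and 3 negative. The median was 0.33 without control replicate 2, with 6 of 11 positive. The immediate early gene Nr4a1 read 2379 and 1209 on the mutant arrays against 724 and 687 (1.24 ± 0.35, and 0.76 without Cxcr7-/- replicate 1; limma's adjusted p = 0.406), the 1 gene of this list with an unadjusted p under 0.05. The mutant pools lay well above the control pools but differed from each other nearly as much. The apelin receptor gene Aplnr (-1.33 ± 0.68, and -0.21 without Cxcr7-/- replicate 2) overlapped, with 236 and 32.3 against 340 and 221, and the basement membrane gene Nid2 was at 0.48 ± 0.33.

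Hypoxia-inducible factors, which drive Vegfa transcription, were followed through 8 genes. Their median was -0.13, with 3 positive and 5 negative. It turned to 0.0049 after median centring and to 0.10 without control replicate 2, and was -0.34 without control replicate 1. Hif1a, the oxygen-regulated subunit, read 10187 and 12612 on the mutant arrays against 8122 and 7669 (0.52 ± 0.22; limma's adjusted p = 0.483), with both mutant pools above both control pools. A dimmer Hif1a probe set, also above the filter, overlapped, with 1290 and 2048 against 1565 and 1510 (0.080 ± 0.30). Arnt, the partner of Hif1a, was at 0.69 ± 0.33, with 790 and 1343 against 644 and 619. Hif1an, which encodes an inhibitor of HIF activity, was at -0.75 ± 0.40, with 234 and 520 against 564 and 649. Without Cxcr7-/- replicate 2 Arnt was at 0.31, and without Cxcr7-/- replicate 1 Hif1an was at -0.21. Antagonists and modulators of vessel growth had a median of 0.049 over 9 genes, 6 positive and 3 negative, which turned to -0.19 with 4 positive without Cxcr7-/- replicate 1 and was 0.30 without control replicate 1. Of these, Timp3, whose product blocks VEGF binding to KDR, read 10350 and 9878 against 7259 and 5763 (0.64 ± 0.22; limma's adjusted p = 0.449). Sema3a, a semaphorin that binds NRP1, read 863 and 1067 against 428 and 623 (0.87 ± 0.31), and its relative Sema3c was at 0.52 ± 0.31.

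**Figure D4:**
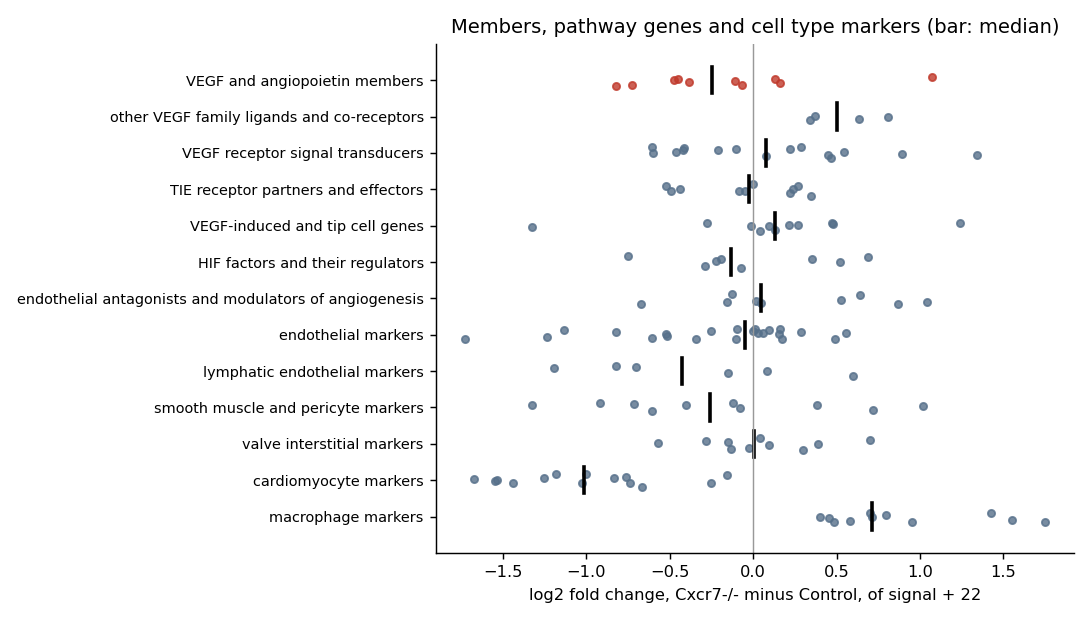
Log2 fold change (Cxcr7-/- minus control, of signal + 22) of the genes above the filter in each list, 1 point per gene with small vertical jitter, and a black bar at the list median; members in red. The members spread from -0.82 to 1.07 around a median of -0.25, endothelial markers from -1.73 to 0.55 around -0.049, and cardiomyocyte and macrophage markers lie on 1 side of 0 each.

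Marker lists of other cell types, some of them not of the leaflet, differed between the pools as well, and their part in the members' values was not tested. All 14 cardiomyocyte markers had negative log2 fold changes, with a median of -1.01. It was -0.58 without Cxcr7-/- replicate 1 and -0.65 without control replicate 2, where 13 of 14 were negative, and their brightest members were Actc1 (25220 and 35008 against 35300 and 35641) and Myl2 (17957 and 23293 against 33462 and 35920). All 11 macrophage markers had positive log2 fold changes, also with any 1 pool left out, with a median of 0.71 and a summed signal of 20910 and 18426 against 13953 and 11396, and Csf1r and C1qb were the brightest. Valve interstitial markers had a median of 0.0076 (0.24 without control replicate 1 and -0.24 without control replicate 2), with Vim and Postn the brightest, and smooth muscle and pericyte markers a median of -0.26 (-0.14 without Cxcr7-/- replicate 1), with Acta2 and Pdgfrb the brightest. Lung epithelial markers had negative log2 fold changes, with a median of -1.70 over 4 genes (3 of 4 negative without Cxcr7-/- replicate 1) led by Scgb3a2 and Sftpc, and of the erythroid markers Alas2 and Slc4a1 overlapped. No gene of these lists was at 0 on any array.

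**Figure D5:**
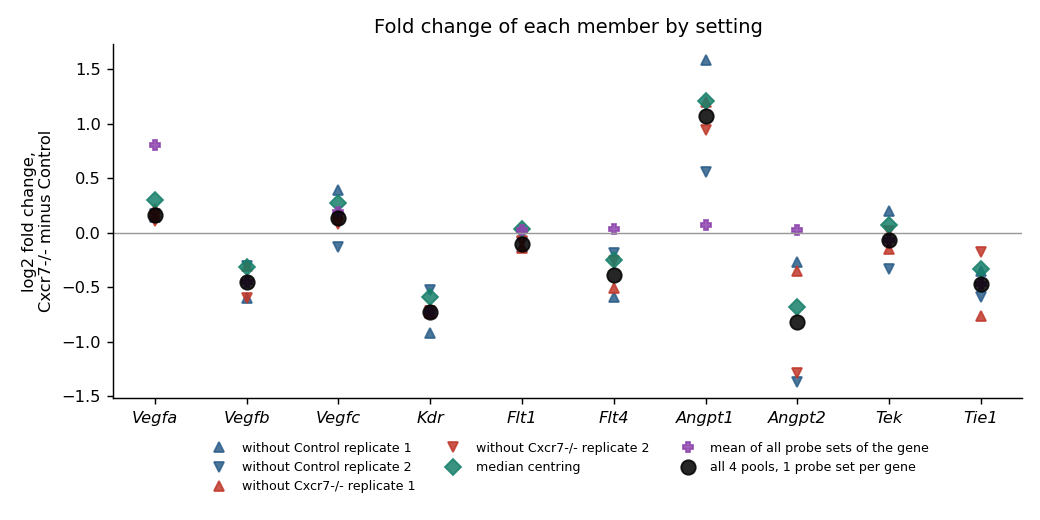
Log2 fold change (Cxcr7-/- minus control) of each member with all pools (black), without each pool in turn (triangles), after median centring (diamonds) and with all probe sets of the gene averaged (crosses). Kdr, Vegfb and Tie1 stay below 0 and Vegfa and Angpt1 above 0 in these settings, Angpt1 between 0.073 and 1.58, while Vegfc, Flt1, Flt4, Angpt2 and Tek each cross 0 at least once. The pools of Kdr, Vegfb, Tie1, Vegfa and Angpt1 lie apart between genotypes, so leaving out a pool cannot turn their sign.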

How the data were processed

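RNA of 4 pools was hybridised to Affymetrix mouse arrays, 1 array per pool. Per the labels' protocols, 50 ng of total RNA was amplified in 2 cycles before labelling. What the authors deposited is a linear intensity for each probe set, made with Expression Console and MAS5 per the submitters' processing notes. Neither software versions nor a genome build is given in the sources used here. The trimmed mean was 500.003 on every array (middle 96% of probe sets), so a value depends on the overall brightness of its array, and dim probe sets carry large relative errors. Precision is limited by the number of arrays, since 4 pools in 2 groups leave 2 degrees of freedom for error.

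After 64 control probe sets were set aside, signals were taken as log2(signal + 22), where 22 is the 25th percentile of the 45037 other probe sets. The 22518 probe sets with a mean above the median were tested across all of them with limma 3.58.1 in R 4.3.3 (lmFit, eBayes with a trend, two-sided, Benjamini-Hochberg, threshold 0.05). The fit was tested on simulated data, in which the planted changes were larger than that of any member. That run therefore says nothing of changes of the members' size. Symbols came from an annotation table of the array, in which 34945 probe sets had 1 gene symbol, 932 several and 9160 none. Each gene was read from the brightest of its single-symbol probe sets, for 11260 genes in all. Likeness to endothelial markers was the root mean square difference of log2 values centred on each gene's mean over the 4 pools.

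All members were named, with the deleted gene; of each pathway list up to 3 genes and of the endothelial markers up to 4 by smallest unadjusted p; of each other marker list up to 2 with the highest mean. A gene named outside this rule was picked with its values in view. The members and lists were chosen with earlier results of these data known. Alternatives were other pseudocounts, filters and scalings, no trend, a replicate block, all probe sets of a gene averaged, and each pool left out. No label ties the replicate numbers to a litter or day, so the pools were not paired. An exact permutation test of 1 value, 2 pools against 2, cannot give a two-sided p below 0.333 and was not used.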

Additional observations from a re-analysis of the deposited data

How the results depend on the processing

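No member passed an adjusted p of 0.05 in limma under another pseudocount, filter or scaling, without the trend or with the replicate block, which called 0 probe sets in the whole table and 0 members. With 1 pool left out, the whole-table count ran from 0 to 673 and the member count from 0 to 1, the latter being Angpt1 without control replicate 1, where the lone control array is assumed to vary like the mutant pair; the count was 8 without Cxcr7-/- replicate 2. The replicate numbers did not pair the pools: deviations of same-numbered pools from their group means correlated at -0.26 across probe sets. A crossed replicate block, added after the data were seen, called 5 probe sets and 0 members. Of 10 member genes, 7 had pools that lay apart, against 40.2% of all genes, and 4 did after median centring (39.9% of all genes) or with all probe sets of a gene averaged (39.3%). Signs turned for Flt1 (0.032) and Tek (0.072) after median centring, and for Flt1 (0.027), Flt4 (0.031) and Angpt2 (0.029) with probe sets averaged. With 1 pool left out, Tek ran from -0.33 to 0.20 and Vegfc from -0.13 to 0.40. Median centring moved every log2 fold change up by the same amount. Averaging brought in probe sets of the opposite sign for Flt1, Flt4 and Angpt2. What made single pools differ was not tested. Kdr, Vegfb, Tie1, Vegfa and Angpt1 kept their sign in every setting run. Their pools lay apart, so leaving out 1 pool or changing the pseudocount could not turn it. The filter, trend and block settings leave the fold change as it is. So does averaging for Kdr, Vegfb and Tie1, which have 1 probe set each. Only the scalings, and averaging for Vegfa and Angpt1, could have turned a sign. Of the 19 member probe sets, 4 were under the filter and were tested only without it, and 2 pools per genotype left a median standard error of 0.34 on the log2 scale.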
